A study of Mus musculus with 6 samples.

Results

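The genes described here are 4 GATA transcription factors, Gata2, Gata3, Gata4 and Gata6, and the 2 FOG (friend of GATA) cofactors that bind them, Zfpm1 (FOG1) and Zfpm2 (FOG2). They were taken by name and make up 6 of the 57180 genes in the count table, and all 6 passed the filter on low counts. Polyadenylated RNA was measured in mouse fibroblasts of 3 origins, lung, cardiac and tail tip, each infected with Ad-GFP, an adenovirus with green fluorescent protein that served as the control, or with Ad-Cre, an adenovirus with Cre recombinase that the labels call GATA4 KO. All groups were grown in DMEM with 10% serum and harvested after 48 h, and all 6 libraries carry the genotype label WT. Cre deletes DNA only between its recognition sites, and the labels name neither such an allele nor the deleted part of Gata4, nor the age, sex or number of animals. Each of the 6 groups holds 1 library.

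GATA factors bind the DNA word GATA through paired zinc fingers, and the amino-terminal finger also holds the FOG cofactors. FOG proteins are recruited through the GATA factor and bring the NuRD chromatin remodelling complex and the CtBP corepressors to GATA sites. Gata4 and Gata6 act in heart, gonad and endoderm, Gata2 in blood stem cells, mast cells and endothelium, and Gata3 in T cells, innate lymphoid cells and skin. Zfpm2 is the main partner of Gata4 in heart and gonad development, and Zfpm1 that of Gata1 in red cells and platelets.

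Libraries held between 26170316 and 33779069 reads, and 3 reads, the limit set here for a count of 0, were 0.0906 to 0.117 CPM (counts per megaread of library size). The fibroblast markers summed to 7730 to 8370 CPM in lung, 14600 to 23100 CPM in cardiac and 18900 to 20100 CPM in tail tip. These sums came mostly from Col1a1, Col1a2 and Vim, and not every marker was high. Lum was at 2.89 and 1.11 CPM in cardiac, 21.5 and 7.49 CPM in lung and 172 and 160 CPM in tail tip. Dcn was at 88.6 and 51.1 CPM in cardiac, 684 and 428 CPM in lung and 843 and 895 CPM in tail tip. Of 11 macrophage and leukocyte markers, 6 had 3 reads or fewer in each lung library and 0 did in the others, where they summed to 1060 and 632 CPM (cardiac Ad-GFP and Ad-Cre) and 5380 and 4560 CPM (tail tip), against 19.4 and 14.9 CPM in lung. Epithelial markers summed to 9.68 CPM in the cardiac Ad-GFP library and to 129 CPM in the Ad-Cre-labelled cardiac library. The same sums were 0.412 and 6.43 CPM in lung and 4.62 and 5.32 CPM in tail tip. Mast cell markers, 7 genes, summed to 0.103 to 0.589 CPM, and 8 erythroid and megakaryocyte markers to 3.74 to 11.4 CPM, mostly from Itga2b and Pf4. The 7 markers of T cells and innate lymphoid cells summed to 326 to 2250 CPM, mostly from Thy1, which fibroblasts also express, and Il1rl1. Within that list Cd3d and Cd3g had at most 1 read in any library, Trac had 179 and 104 reads in cardiac, and Il7r had 795 and 546 in tail tip. The 8 cardiomyocyte markers summed to 77.1 and 55.7 CPM in cardiac, 32.0 and 40.9 CPM in lung and 3.05 and 2.75 CPM in tail tip. Tnnt2 gave 75.1 and 51.7 CPM of the cardiac sums, while Pln had at most 3 reads. The part of these markers in the results below was not tested. In bulk RNA, fewer cells of a type and less RNA per cell cannot be told apart.

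Reads of the family members can be assigned apart as far as their sequences differ, so the longest stretch that each of 3 pairs shares in its annotated transcripts (GENCODE, GRCm38) is shown: the longest of any pair, that of Gata2 and Gata4, and that of the FOG genes. They lie in transcripts and are given 5′ to 3′ in the transcript's own direction.
Gata4 and Gata5, 26 bases: ggcctctacatgaagctccatggggt
Gata2 and Gata4, 23 bases: cactacctgtgcaatgcctgtgg
Zfpm1 and Zfpm2, 20 bases: gagcggaacctgcaagccca
No stretch of 30 bases was shared between any of these 6 genes, Gata1 and Gata5.

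RefSeq promoter windows of 300 bases (250 before and 50 after the annotated start, GRCm38.p6) were found for 3 members, Gata2 (with 2 starts), Gata3 and Zfpm1. The word AGATAA, the word AGATAG, the word TGATAA and the word TGATAG were searched on both strands, and 29.8% of all 32851 windows held at least 1 of them. Gata3 is shown because it was the member with a match, in capitals, whose first base lies 37 bases after the start. Zfpm1 is shown because its ratio between the viruses pointed in different directions by origin.
Gata3, chr2:9878551-9878850, minus strand: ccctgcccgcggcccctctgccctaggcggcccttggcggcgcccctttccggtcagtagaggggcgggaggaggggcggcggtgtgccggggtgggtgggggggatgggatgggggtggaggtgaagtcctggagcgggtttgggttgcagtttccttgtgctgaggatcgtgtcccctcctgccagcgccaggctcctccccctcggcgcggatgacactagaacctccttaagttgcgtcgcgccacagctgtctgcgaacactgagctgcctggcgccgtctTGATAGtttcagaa
Zfpm1, chr8:122281891-122282190, plus strand: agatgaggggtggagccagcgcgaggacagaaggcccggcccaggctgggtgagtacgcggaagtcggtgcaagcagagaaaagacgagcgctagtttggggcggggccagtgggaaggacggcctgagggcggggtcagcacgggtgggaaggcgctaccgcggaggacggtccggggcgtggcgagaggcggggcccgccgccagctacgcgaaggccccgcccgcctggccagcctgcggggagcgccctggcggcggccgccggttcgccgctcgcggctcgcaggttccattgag
The windows held 67.3% (Gata3) and 73.7% (Zfpm1) G and C, against a median of 52.7% over all windows. Counts per gene do not say which of the 2 Gata2 starts was used.

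Gata4 (ENSMUSG00000021944), the gene named by the knockout label, was abundant in cardiac, intermediate in lung and close to absent from tail tip fibroblasts. It had 4769 reads in the cardiac Ad-GFP library and 4561 in the Ad-Cre-labelled cardiac library, or 147 and 149 CPM. The lung libraries had 428 and 492 reads, or 14.7 and 19.2 CPM. The tail tip libraries had 1 and 2 reads. No 2 origins overlapped. By reads per exon length, the cardiac libraries placed Gata4 at percentile 94.4 and 94.7 of the genes with a read and a length. Here and below, the share of all tested genes whose origins also did not overlap was not counted. Such separation is therefore not shown to be particular to these genes. Gata4 was higher in cardiac than in lung by 3.14 on the log2 scale (SE 0.18, adjusted p = 3.6e-05, edgeR). Scaled to library size, its summed cardiac reads were 3200 times those of tail tip (95% counting interval 1090 to 15500), and its summed lung reads 363 times (124 to 1760).

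The knockout label was not matched by a lower Gata4 count. The Ad-Cre-labelled library had 1.02 times the Ad-GFP level in cardiac (95% counting interval 0.978 to 1.06) and 1.31 times in lung (1.14 to 1.49), and tail tip had too few reads to compare. A count over the whole gene does not show whether a part of it was deleted. Directions between the viruses are therefore given below for the libraries as labelled.

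Gata6, which acts beside Gata4 in heart and in smooth muscle, followed the same order of origins. Its CPM values were 86.6 and 43.1 in cardiac (Ad-GFP, then Ad-Cre), 10.3 and 15.6 in lung, and 0.283 and 0.121 in tail tip, where it had 9 and 4 reads. The origins did not overlap, but the cardiac libraries stood further apart from each other than those of lung. The cardiac level was higher than lung by 2.25 on the log2 scale (SE 0.38, adjusted p = 0.00372, edgeR), and limma-voom gave an adjusted p of 0.152. The cardiac CPM was 8.43 times that of lung with Ad-GFP (7.48 to 9.53) and 2.76 times in the Ad-Cre-labelled libraries (2.47 to 3.10). Summed over both viruses and scaled to library size, its cardiac reads were 327 times tail tip (191 to 614), and its lung reads 63.7 times (37.0 to 120). The noncoding gene 1010001N08Rik overlaps Gata6 exons on the opposite strand. It had 149 and 134 reads in the cardiac libraries, and the strand setting of the counts is not given in the sources used here. The 7 smooth muscle and pericyte markers, mostly Acta2, summed to 3040 and 2380 CPM in cardiac, 755 and 748 CPM in lung and 1170 and 1220 CPM in tail tip. Mcam was highest in cardiac (146 and 185 CPM) and Rgs5 in lung (10.9 and 5.77 CPM). Their part in the Gata6 result was not tested.

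Gata2, a factor of blood stem cells and endothelium, had another order, with lung highest. It measured 21.0 and 32.2 CPM in lung, 14.2 and 16.1 CPM in cardiac and 4.15 and 4.29 CPM in tail tip, with no overlap between origins. Cardiac was lower than lung by a log2 fold change of -0.79 (SE 0.22, adjusted p = 0.0255, edgeR). Without the Ad-Cre-labelled lung library this was -0.56, with an adjusted p of 0.275. Against tail tip, Gata2 was higher in lung by 2.63 (SE 0.23, adjusted p = 0.000112) and in cardiac by 1.84 (SE 0.23, adjusted p = 0.00107) on the same scale. The 8 endothelial markers summed to 7.38 and 9.59 CPM in lung, 15.0 and 19.5 CPM in cardiac and 29.5 and 27.4 CPM in tail tip. Single markers differed in order: Kdr was at 0.206 and 0.507 CPM in lung and 18.3 and 16.6 CPM in tail tip, and Cdh5 at 5.49 and 6.86 CPM in lung and 0.157 and 0.302 CPM in tail tip. Their part in the Gata2 result was not tested.

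Gata3, best known from T cells and skin, was the lowest of the 4 GATA members per length in lung and cardiac. Its levels were 8.58 and 4.19 CPM in cardiac, 2.40 and 2.50 CPM in lung, and 0.818 and 0.665 CPM in tail tip. The origins did not overlap, and the cardiac libraries differed most from each other. The difference of cardiac from lung was 1.31 on the log2 scale (SE 0.41, adjusted p = 0.0416, edgeR). It missed the threshold under limma-voom (0.0688) and without either lung library, either tail tip library or the cardiac Ad-GFP library (0.0579 to 0.38). Against tail tip it was higher by 3.05 in cardiac (SE 0.44, adjusted p = 0.00226) and by 1.74 in lung (SE 0.44, adjusted p = 0.0138). The lung difference missed the threshold without the Ad-Cre-labelled lung library (0.122) and without either tail tip library (0.0933 and 0.054).

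**Figure D1:**
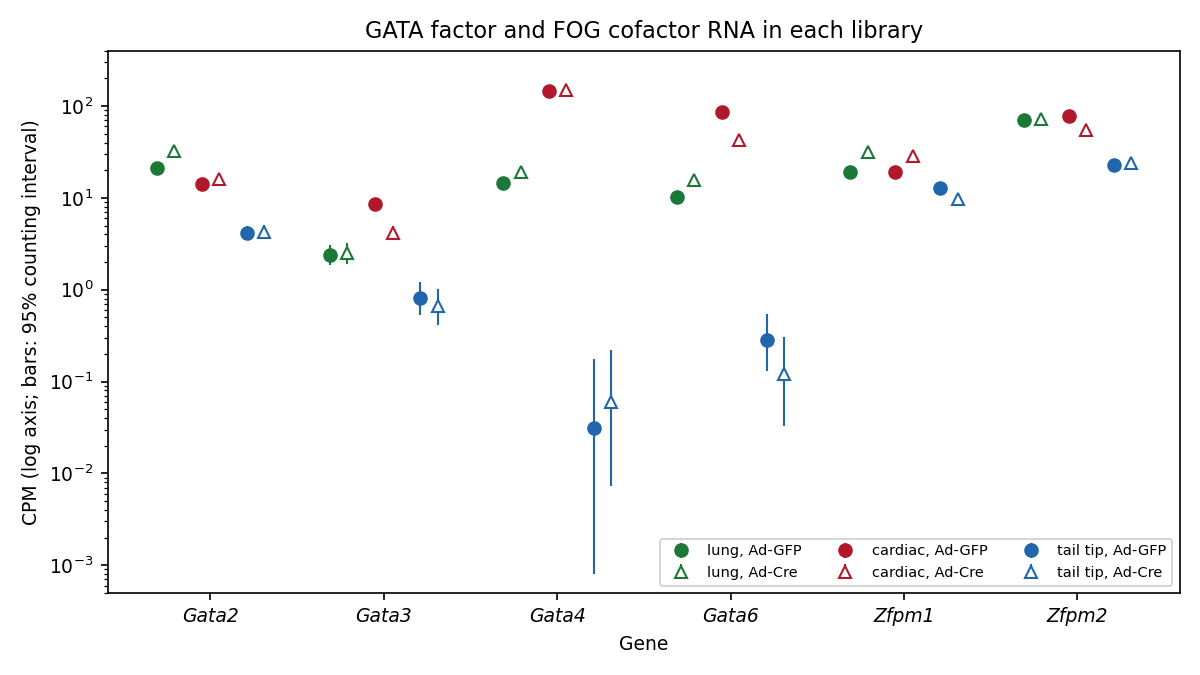
CPM of the 6 genes in each library on a log axis, with filled circles for Ad-GFP, open triangles for Ad-Cre and bars for 95% counting intervals. Gata4 spans 0.0315 to 149 CPM, while Zfpm1 spans 9.61 to 31.2 CPM.

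The FOG genes varied less between origins. Zfpm2 measured 70.7 and 72.2 CPM in lung, 77.3 and 55.2 CPM in cardiac and 22.8 and 24.1 CPM in tail tip. Its lung values lay between those of cardiac, and both origins stood above tail tip. It was higher than tail tip by 1.61 in lung (SE 0.19, adjusted p = 0.000443) and by 1.49 in cardiac (SE 0.19, adjusted p = 0.00125) on the log2 scale. Cardiac against lung gave -0.12 (95% interval -0.56 to 0.32, adjusted p = 0.639), and 0.14 without the Ad-Cre-labelled cardiac library. Without the cardiac Ad-GFP library it was -0.44, with an adjusted p of 0.0365.

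Zfpm1 measured 19.1 and 31.2 CPM in lung, 19.0 and 28.9 CPM in cardiac and 12.8 and 9.61 CPM in tail tip. Lung and cardiac overlapped, and both lay above tail tip. It was higher than tail tip by 1.11 in lung (SE 0.29, adjusted p = 0.0171) and by 1.04 in cardiac (SE 0.29, adjusted p = 0.0319). Without the Ad-Cre-labelled tail tip library the adjusted p was 0.273 and 0.469, and the lung difference also missed the threshold without the Ad-Cre-labelled lung library (0.0645). Cardiac against lung gave -0.06 (95% interval -0.74 to 0.61, adjusted p = 0.88), and 0.24 without the Ad-Cre-labelled lung library and 0.10 without the cardiac Ad-GFP library.

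Across the edgeR comparisons of origins, 3 members were higher and 1 lower in cardiac than in lung, where 38.4% of all 18143 tested genes passed, 20.8% as higher and 17.6% as lower. Limma-voom called 2 members, as did edgeR without the Ad-Cre-labelled lung library. In the comparisons with tail tip, all 6 passed as higher in cardiac than in tail tip, where 15.5% of tested genes did (33.5% in either direction, 18.0% as lower), and all 6 in lung, where 22.3% did (50.6% in either direction, 28.2% as lower). Gata4 and Gata6 had fewer than 10 reads in the tail tip libraries and entered the test through the other origins, so these counts are not evidence for the members as a group. Zfpm1 was the member with the smallest share of its log2 variation between origins, 75.7%, against 93.8% to 99.9% for the others. The p-values rest on how far the virus difference varied between origins, not on separate cultures or animals.

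**Figure D2:**
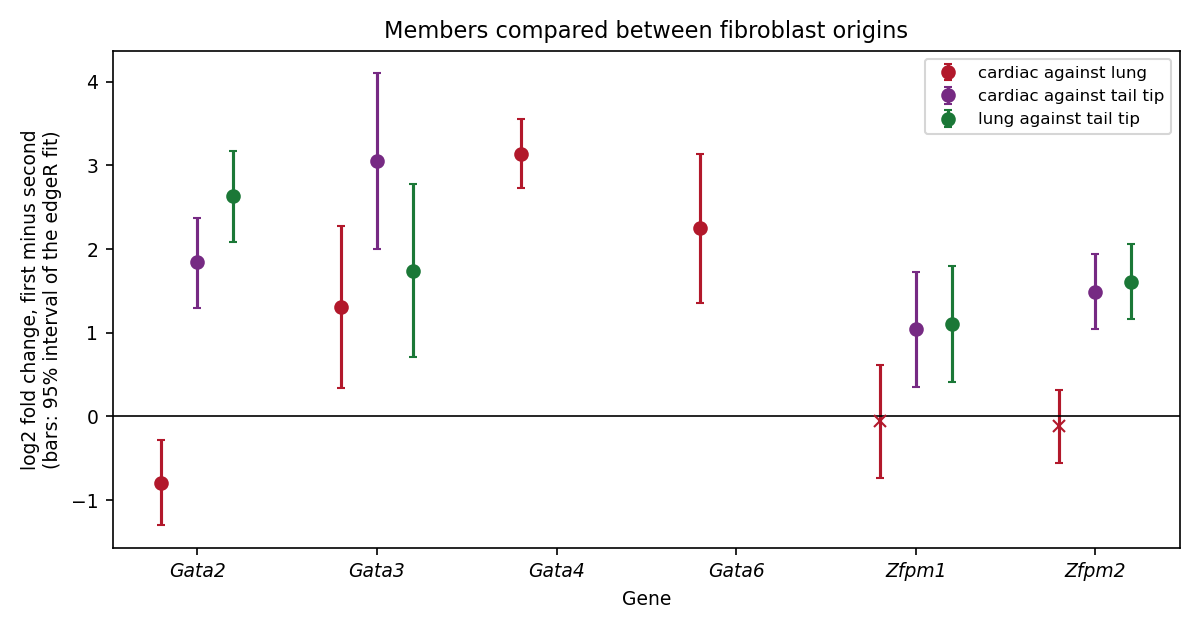
Fitted log2 fold changes between origins with 95% intervals, with crosses for comparisons that missed the adjusted threshold of 0.05. Gata4 and Gata6 against tail tip are left out for their low tail tip reads. Gata4 stands at 3.14 in cardiac against lung, and the FOG genes lie near 0 there.

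The Ad-Cre-labelled libraries were compared with Ad-GFP over the 3 origins to ask which changes they share. No member passed, and 0.0% of the 18143 tested genes did (edgeR, lowest adjusted p 0.9996). At an unadjusted p under 0.05 there were 0 members and 367 genes, and DESeq2 called 4 genes and limma-voom 0, with 0 members in each. The fitted log2 differences were 0.30 for Gata2, -0.45 for Gata3, 0.21 for Gata4, -0.31 for Gata6, 0.31 for Zfpm1 and -0.13 for Zfpm2. The Gata4 interval ran from -0.17 to 0.59. Without the cardiac libraries the sign of Gata6 turned, to 0.38, and that of Zfpm2 to 0.05.

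Within an origin there is 1 library on each side and no test. In the cardiac pair Gata6 and Gata3 were lower in the Ad-Cre-labelled library, at 0.497 times (95% counting interval 0.466 to 0.531) and 0.489 times (0.393 to 0.605) the Ad-GFP level. Both lay just past 2-fold, and without TMM scaling neither did. In that pair 20.3% of tested genes differed at least 2-fold, with 11.3% higher and 9.07% lower by that much. Gata4 in the same pair was level, so the ratio of Gata4 to Gata6 reads was 2.05 times as high with Ad-Cre (1.89 to 2.21), a value that no scaling or length can change. The same ratio in lung was 0.859 times (0.701 to 1.05). The opposite-strand gene 1010001N08Rik had a cardiac ratio of 0.958 (0.753 to 1.22). Mesothelial and epithelial markers also differed in this cardiac pair, in both directions. The 9 mesothelial and epicardial markers summed to 167 and 221 CPM, with more reads in the Ad-Cre-labelled library for Upk1b (184 and 1269) and Msln (209 and 842), fewer for Tcf21 (1148 and 338) and Lrrn4 (1048 and 288), and similar reads for Wt1 (307 and 270). The epithelial Krt18 had 67 and 1075 reads in cardiac, and 1 and 22 in lung. In lung the mesothelial and epicardial sum was 170 and 209 CPM, mostly from Msln at 153 and 193 CPM. The part of these markers in the result was not tested.

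In the lung pair no member reached 2-fold, where 7.69% of tested genes did (4.87% higher, 2.82% lower). Zfpm1 was at 1.63 times (1.46 to 1.82), Gata2 at 1.54 times (1.38 to 1.71) and Gata6 at 1.52 times (1.30 to 1.77) in the Ad-Cre-labelled library. Of all tested genes, 13.8% differed at least as much as Zfpm1 in that pair. With the prior count of 2 that the 2-fold calls use, the tail tip pair had 0 members at 2-fold, against 3.1% of tested genes (1.53% higher, 1.58% lower). Without a prior count Gata6 was at 0.427 times there, with an interval of 0.096 to 1.53 from its 9 and 4 reads, and with a prior count of 0.5 it was called. Zfpm1 was at 0.748 times (0.644 to 0.869) in tail tip. Zfpm2 was at 1.02 times in lung, 0.714 times in cardiac (0.671 to 0.760) and 1.06 times in tail tip. The ratio of Zfpm2 to Zfpm1 reads therefore moved 0.625 times in lung (0.550 to 0.710), 0.468 times in cardiac (0.414 to 0.529) and 1.41 times in tail tip (1.18 to 1.69).

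**Figure D3:**
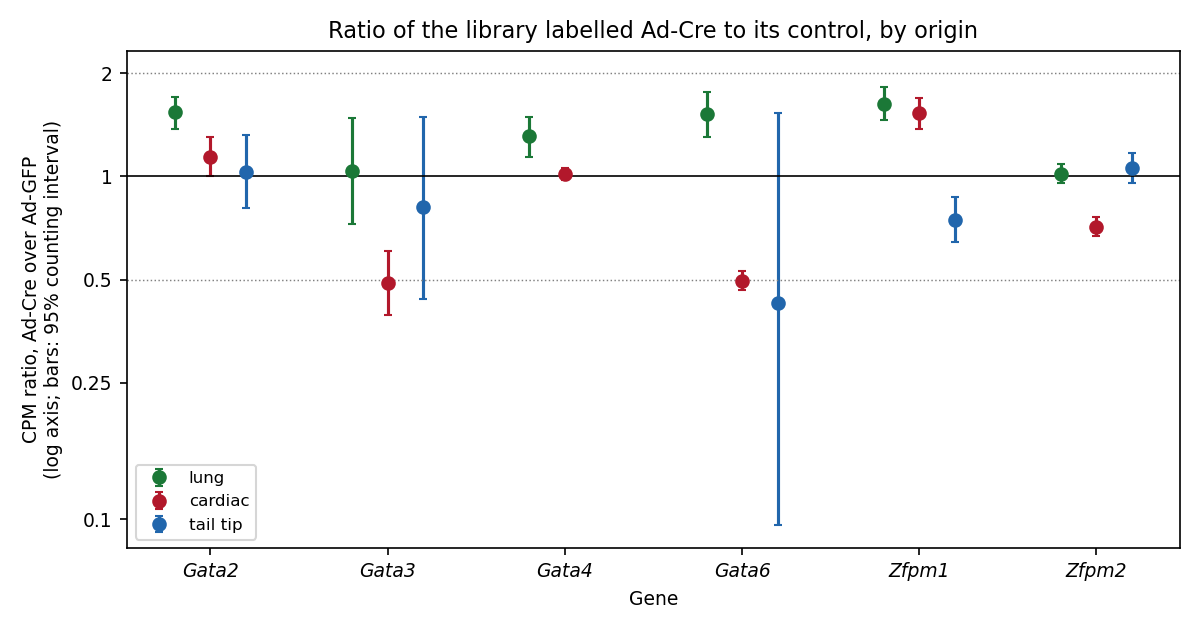
CPM ratio of the Ad-Cre-labelled library to Ad-GFP for each gene and origin on a log axis, with 95% counting intervals and dotted lines at 2-fold. Gata4 in tail tip is left out for its 1 and 2 reads. Gata3 and Gata6 in cardiac lie at 0.489 and 0.497, and Zfpm1 lies above 1 in lung and cardiac and at 0.748 in tail tip.

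Levels of different genes were compared as reads per exon length. Gata4 made up 67.2% of the summed GATA level in the cardiac Ad-GFP library and 78.1% in the Ad-Cre-labelled cardiac library, followed by Gata6 with 23.8% and 13.5%. The Gata6 shares depended on the length used and were 34.9% and 21.1% with the longest protein-coding transcript. In lung, Gata2 and Gata4 held 39.5% and 38.3% with Ad-GFP and 42.8% and 35.2% in the Ad-Cre-labelled library. With the longest transcript they lay further apart, at 43.0% and 31.6% with Ad-GFP and 46.0% and 28.8% in the Ad-Cre-labelled library. In tail tip Gata2 led with 74.0% and 79.8%, and Gata3 came next with 19.8% and 16.8%. The leading factor of each of the 6 libraries was the same with 3 other choices of length. In lung Ad-GFP, however, Gata2 stood at 1.03 times Gata4 with all exons, so their order there is uncertain with that length. No counting interval was computed for shares per length, and the tail tip shares rest on 169 and 170 GATA reads. Gata1 had at most 11 reads and Gata5 at most 8 in any library.

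**Figure D4:**
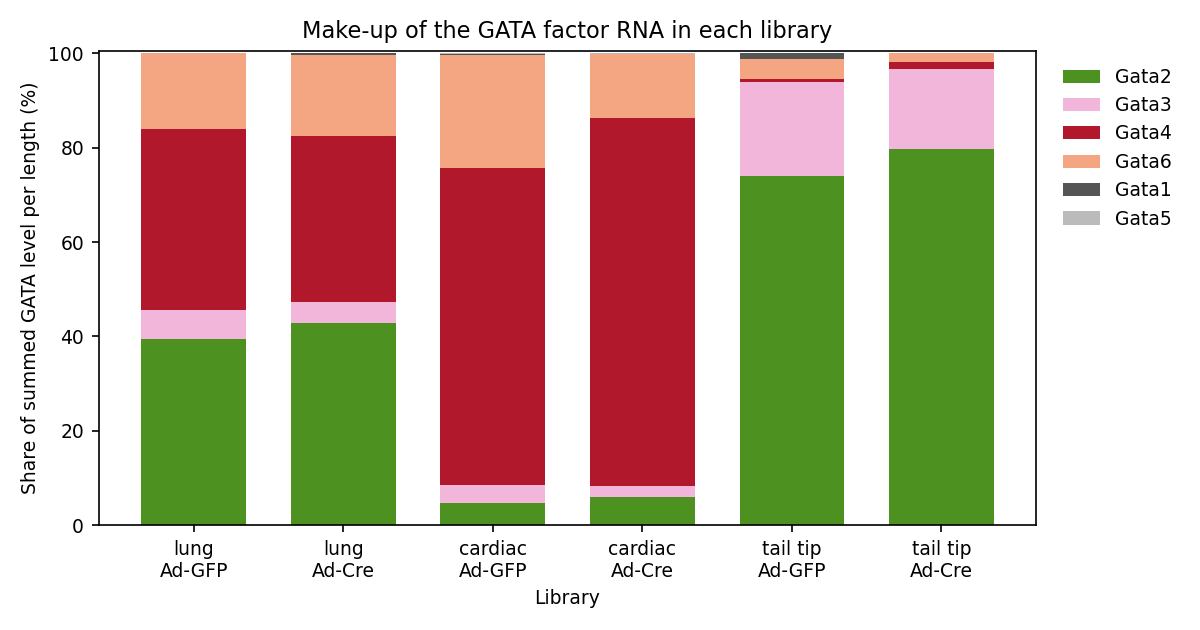
Share of each GATA gene in the summed GATA level per exon length, as stacked bars for the 6 libraries. Gata4 fills 67.2% and 78.1% of the cardiac bars, and Gata2 fills 74.0% and 79.8% of the tail tip bars.

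The GATA level was summed as reads per exon length, scaled so that all genes with a length had the same total in each library. This sum was 210 and 193 in cardiac, 34.1 and 49.2 in lung and 4.07 and 3.96 in tail tip. The summed FOG level was 50.8 and 55.5 in cardiac, 44.6 and 58.1 in lung and 23.7 and 20.9 in tail tip. FOG RNA was thus 0.242 and 0.287 times GATA RNA in cardiac, 1.31 and 1.18 times in lung and 5.82 and 5.29 times in tail tip. Which FOG gene was higher per length depended on the length used: the ratio of Zfpm2 to Zfpm1 in the Ad-Cre-labelled lung library was 0.851 with all exons and 1.36 with the longest transcript.

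**Figure D5:**
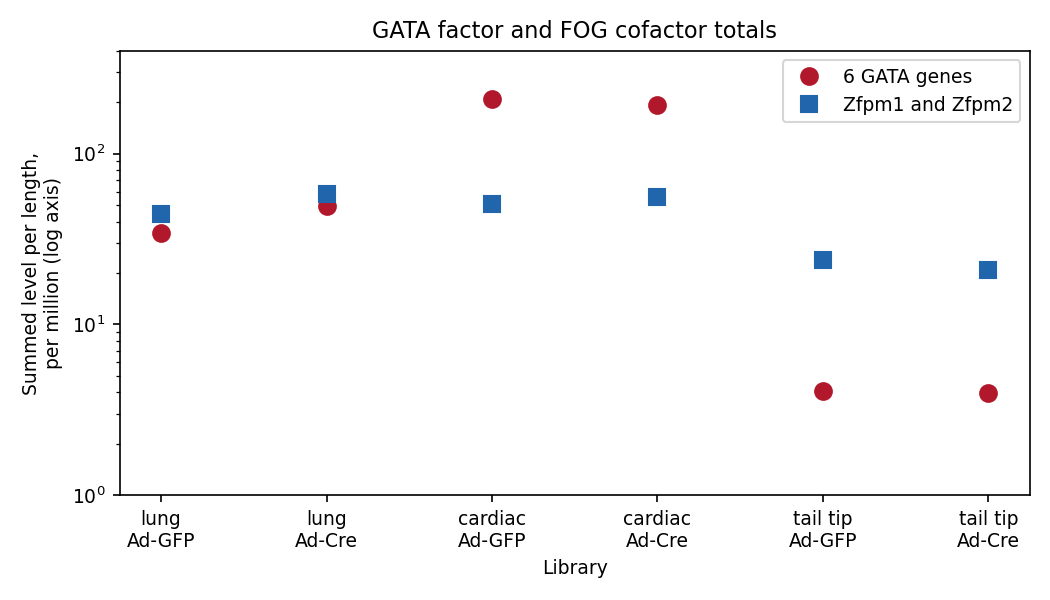
Summed level per exon length of the 6 GATA genes (circles) and of Zfpm1 and Zfpm2 (squares) in each library, on a log axis. GATA totals run from 3.96 to 210 and FOG totals from 20.9 to 58.1.

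Of 15 genes of the NuRD and CtBP complexes that FOG proteins recruit, 8 were lower and 0 higher in cardiac than in lung, with a median log2 difference of -0.43 against -0.01 over all tested genes, of which 17.6% were lower and 20.8% higher. Chd3, a NuRD remodelling ATPase, had the lowest value, -1.61 (SE 0.14, adjusted p = 0.000251), and the histone-binding Rbbp7 stood at -0.79 (SE 0.15, adjusted p = 0.00581). Without the lung Ad-GFP library or either tail tip library 4 were lower and 0 higher, and without the Ad-Cre-labelled lung library 2 were lower and 1 higher. Against tail tip, 9 were higher and 1 lower in lung, where 50.6% of all tested genes passed, and 5 higher and 1 lower in cardiac, where 33.5% did. Without the tail tip Ad-GFP library 2 and 1 genes passed in those comparisons, and without the Ad-Cre-labelled tail tip library 3 passed in lung.

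Of 18 tested transcription factors and coactivators that work with GATA4, 5 were higher and 7 lower in cardiac than in lung, where 38.4% of all tested genes passed. Tbx20, a T-box factor of heart development, had 21516 and 12408 reads in cardiac, 178 and 159 in lung and 1 and 0 in tail tip, and was higher in cardiac than lung by 6.40 (SE 0.26, adjusted p = 1.35e-05). Hand2, a heart and limb factor, had 857 and 370 reads in cardiac and 5 and 8 in lung. Nkx2-5, the cardiac homeobox factor, went the other way, with 13 and 15 reads in cardiac and 158 and 150 in lung (log2 -3.66, SE 0.54, adjusted p = 0.00214). Tbx5 was also lower in cardiac (log2 -2.44, SE 0.46, adjusted p = 0.00888). Against tail tip, 7 of these genes were higher and 1 lower in cardiac, where 33.5% of all tested genes passed. In lung 10 were higher and 3 lower (50.6%). Tbx20, Hand2, Tbx5 and Nkx2-5 had at most 1 read in any tail tip library, and Hand2 had few in lung. They entered the test through other libraries, so the counts of this list are not evidence for it as a group.

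Of 17 tested genes known as GATA4 or GATA6 targets, 8 were higher and 2 lower in cardiac than in lung, where 20.8% and 17.6% of all tested genes were, with a median of 0.69 against -0.01 over all tested genes. Bmp4, a secreted growth factor, was higher by 2.61 (SE 0.26, adjusted p = 0.000415), the cyclin Ccnd2 by 2.24 (SE 0.18, adjusted p = 0.000137) and the axon guidance receptor Plxna2 by 2.35 (SE 0.20, adjusted p = 0.000196). Cdk4 was lower (log2 -1.32, SE 0.16, adjusted p = 0.000953), as was Sema3c (log2 -1.25, SE 0.35, adjusted p = 0.0275). The list was not divided into targets that GATA factors activate and targets that they repress. Against tail tip, 8 were higher and 5 lower in cardiac, and 8 higher and 6 lower in lung. Of all tested genes, 33.5% and 50.6% passed there. Agtr1a had the largest change from lung to cardiac, 4.59 (SE 1.24), with 31 and 5 cardiac, 1 and 0 lung and 240 and 318 tail tip reads. Lhx9 had 1 and 2 reads in tail tip, and Tnnt2 7 and 8. These genes entered the test through other libraries, so the counts of this list are not evidence for it as a group. The natriuretic peptide gene Nppb fell below the filter and had 0 reads in the cardiac Ad-GFP library and 233 in the Ad-Cre-labelled cardiac library, or 7.63 CPM, against 1 to 8 reads elsewhere.

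Among 11 tested signals and factors upstream of Gata4 and Gata6, 5 were higher and 2 lower in cardiac than in lung. Of all tested genes, 38.4% passed there, 20.8% as higher and 17.6% as lower. Aldh1a2, which makes retinoic acid, had 1741 and 1195 reads in cardiac, 0 and 1 in lung and 17 and 17 in tail tip. Tcf21, a factor of epicardial cells and cardiac fibroblasts, had reads in the cardiac libraries only, 1148 and 338. Foxf1, a lung mesenchyme factor, was lower in cardiac than in lung (log2 -2.25, SE 0.34, adjusted p = 0.00227). Against tail tip, 6 were higher and 0 lower in cardiac, and 3 higher and 3 lower in lung, where 33.5% and 50.6% of all tested genes passed. Aldh1a2, Tcf21 and Wt1 had at most 1 read in any lung library and entered the test through other libraries. The counts of this list are therefore not evidence for it as a group. Of 4 tested genes with other GATA-type fingers, 0 differed between cardiac and lung. Against tail tip, 1 of them was higher and 1 lower, in cardiac and in lung alike. Trps1, a GATA-type repressor, was lower than in tail tip, at a log2 difference of -1.89 in cardiac (SE 0.18, adjusted p = 0.000275) and of -1.85 in lung (SE 0.17, adjusted p = 0.000156). Gatad1 was higher than in tail tip, by 1.02 in cardiac (SE 0.15, adjusted p = 0.00234) and by 1.02 in lung (SE 0.15, adjusted p = 0.00119). No gene of these 5 lists passed between the viruses in the edgeR fit.

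Genes whose profile over the 6 libraries was most like a member's were ranked among 12881 genes by the root mean square difference of centred log2 CPM, as a description. The 6 libraries form 3 pairs that share an origin. Nearest to Gata4 were Esm1 and Sprr1a (0.82 each), while Gata6 stood at 1.13. Pearson r with Gata4 was 0.9935 for Esm1, 0.9819 for Sprr1a and 0.9903 for Gata6. Gata4 had 1 and 2 reads in tail tip and Gata6 9 and 4, so distances from these 2 genes depend in part on the prior count of 2. Nearest to Gata6 were Rhox5 (0.46), Ankrd1 and Esm1 (0.62 each). Gata2 lay nearest to Etv4 and the DNA helicase gene Blm (0.11 each), then Smc2 (0.12) and Hells (0.14). Gata3 lay nearest to Cish (0.19), Zfpm1 to Cacnb2 (0.17) and Zfpm2 to Dzip1l (0.04).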

How the data were processed

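Raw whole-number counts of reads for each gene were deposited by the authors. Per the submitters' processing notes, mm39 and STAR 2.0.7 were used, with no roles named. How reads were counted, with which annotation, strand setting and filters, is not given in the sources used here. Columns were matched to libraries by the names in the labels, which cite a matrix titled for another subject. Symbols and lengths came from GENCODE on GRCm38 and matched 51884 identifiers.

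Of 35114 genes with a read, filterByExpr (minimum count 10) kept 18143. They were tested with edgeR 4.0.16 (R 4.3.3) by robust quasi-likelihood F-tests, two-sided, in an additive model of origin and virus with TMM factors of 0.964 to 1.03 and 2 residual degrees of freedom. P-values were Benjamini-Hochberg adjusted over all tested genes, with a threshold of 0.05. CPM were TMM-scaled. Ratios carry exact conditional binomial 95% intervals, which cover counting error only, since reads without molecular identifiers are not independent molecules, and 2-fold calls used a prior count of 2.

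The members and gene lists were chosen with earlier results of these data known. Text names all members, Gata1 and Gata5, up to 5 genes most like each member and examples from each list. Examples were taken among genes with large changes or for their role. Some listed genes with larger changes are left out, such as Nr2f1 (log2 -3.63 in cardiac against lung). Of the genes that overlap a member, only 1010001N08Rik at Gata6 is named. Others overlap Gata3, Zfpm1 and Zfpm2. Alternatives were DESeq2 1.42.0, limma-voom (limma 3.58.1), other scalings, filters, lengths and prior counts, and leaving out libraries. The longest protein-coding transcript and voom with sample weights were added after seeing the data.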

Additional observations from a re-analysis of the deposited data

Results flagged for a closer look

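Gata6 was higher in the lung library labelled Ad-Cre, at 1.52 times Ad-GFP, and lower in the cardiac one, at 0.497 times. Zfpm1 was higher in the libraries labelled Ad-Cre of lung (1.63 times) and cardiac (1.53 times) and lower in that of tail tip (0.748 times). In each case the libraries of different origins moved in opposite directions beyond counting error. The difference between origins was not tested, since each group holds 1 library.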

How the results depend on the processing

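The additive model pairs the 2 viruses by origin, which it holds as a term. Pairing beyond the origin was not possible because each group holds 1 library with no replicate numbers. Members called between cardiac and lung numbered 4, 2 under limma-voom and 2 to 4 when 1 library was left out, and lowest without the Ad-Cre-labelled lung library. Leaving out 1 library moved cardiac against lung from -0.38 to 0.24 for Zfpm1 (0.24 without the Ad-Cre-labelled lung library, 0.10 without cardiac Ad-GFP) and from -0.44 to 0.14 for Zfpm2, and Ad-Cre against Ad-GFP from -1.04 to 0.44 for Gata6 and from -0.23 to 0.06 for Zfpm2. Gata6 was 0.44 and 0.43 and Zfpm2 0.06 and 0.04 without 1 cardiac library, and 0.38 and 0.05 without both. Within cardiac, 0 members reached 2-fold without TMM factors, and within tail tip 1 did with a prior count of 0.5. The Gata2 share was 43.0% and 43.4% in lung Ad-GFP and 46.0% and 46.3% in lung Ad-Cre, with the longest transcript and with no length. The Gata4 share was 59.2%, 57.2% and, with the longest protein-coding transcript, 56.2% in cardiac Ad-GFP, and 71.8%, 70.1% and 69.6% in cardiac Ad-Cre. Leaving out 1 library, the called genes of the NuRD and CtBP list ranged from 3 to 10 (cardiac against lung, 3 without both tail tip libraries), 1 to 8 (cardiac against tail tip) and 2 to 13 (lung against tail tip). Called targets ranged from 8 to 16 (cardiac against tail tip) and 0 to 1 between the viruses, where DESeq2 and the unfiltered table each called 1. Called other GATA-type genes ranged from 1 to 3 (cardiac against tail tip), and called upstream genes from 3 to 7 (lung against tail tip), with 1 between the viruses in the unfiltered table. The cause of these changes was not tested. With 1 library left out an origin rests on 1 library, assumed to vary like the others. With 1 library per group, counting depth limits most the members with few tail tip reads, Gata4, Gata6 and Gata3.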
